A study of Homo sapiens with 2 samples.

Results

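The genes described here are 49 genes for the subunits, regulators and assembly factors of the proteasome. They were chosen by symbol out of the 60683 genes in the count table, and each of the 49 symbols matched 1 Ensembl gene ID. The libraries came from total RNA of HEK293T, an established line of embryonic kidney origin with the SV40 large T antigen, in which short hairpin RNAs stably lowered FKBP5, an immunophilin gene whose product works with HSP90. The series title asks which genes differ in expression after that knockdown. The 2 samples analysed here both carry the knockdown and form 1 group, and scrambled control cells were not analysed here. The values below are therefore levels in knockdown cells and differences between 2 libraries, and none is an effect of the knockdown.

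The proteasome degrades proteins that have been tagged with ubiquitin. Its barrel, the 20S core, stacks alpha rings of PSMA subunits around beta rings of PSMB subunits, and the beta subunits PSMB5, PSMB6 and PSMB7 cut the substrate. The 19S cap recognises ubiquitin, removes it and unfolds the substrate with a ring of ATPases. Interferon-gamma induces the alternative subunits PSMB8, PSMB9 and PSMB10, which replace the constitutive catalytic subunits in newly built immunoproteasomes and favour peptides for antigen presentation. Cells that are not of blood lineage usually make little of them without interferon.

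The libraries summed to 9997706 counts in sample 1 and 21284648 in sample 2. The deposited scaling rests on library sizes 3.78% and 2.68% above these sums in samples 1 and 2. The labels do not say whether the samples came from separate cultures or from 1 clone, and p-values between them may measure technical spread alone. FKBP5 had 41 counts in sample 1 and 77 in sample 2, which were 3.95 and 3.52 CPM (counts scaled to library size, as deposited). With no control library, these values do not check the knockdown. Of 14 genes known from HEK293 cells for neural or embryonic kidney origin, 13 had a mean of at least 1 CPM, and the largest CPM, not scaled to length, were those of the neurofilament gene NEFL at 297 ± 11.7 CPM (SD, n = 2), the enolase gene ENO2 at 117 ± 14.4 CPM and the growth regulator LIN28B at 104 and 98.4 CPM in samples 1 and 2. Of 18 blood cell markers, 13 were under 1 CPM, and their summed level was 37.8 and 38.7 CPM in samples 1 and 2. PTPRC, the pan-leukocyte marker, had 1 and 10 counts. CORO1A had 18.0 ± 1.85 CPM, and HLA-DRB1 had 10.4 ± 0.579 CPM. Of 12 fibroblast and endothelial markers 6 were under 1 CPM, and the summed level was 67.0 and 78.5 CPM in samples 1 and 2, mostly from COL1A1 at 59.7 ± 8.10 CPM, followed by COL3A1 at 5.34 ± 0.893 CPM and VWF at 1.78 ± 0.466 CPM.

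Most proteasome genes were well counted, and the genes of the inducible catalytic subunits were among the few that were not. Of the 49 genes, 25 had a mean of at least 100 CPM, 16 had 10 to 100 CPM and 8 had less than 10 CPM. Together they took 56782 counts in sample 1 (0.568% of its summed counts) and 110288 in sample 2 (0.518%). CPM is not scaled to length, so these bins give the reads behind each gene, and levels of proteasome genes are compared by CPM per kilobase of the principal protein-coding transcript in GENCODE 29 (GRCh38). On that scale the median of the 49 genes was 39.4 CPM per kilobase, against 8.83 over the 13232 protein-coding genes that averaged 1 CPM or more. The extremes were PSMB4, a constitutive beta subunit, at 283 ± 11.8 CPM per kilobase and PSMB8 at 0.233 ± 0.156.

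**Figure D1:**
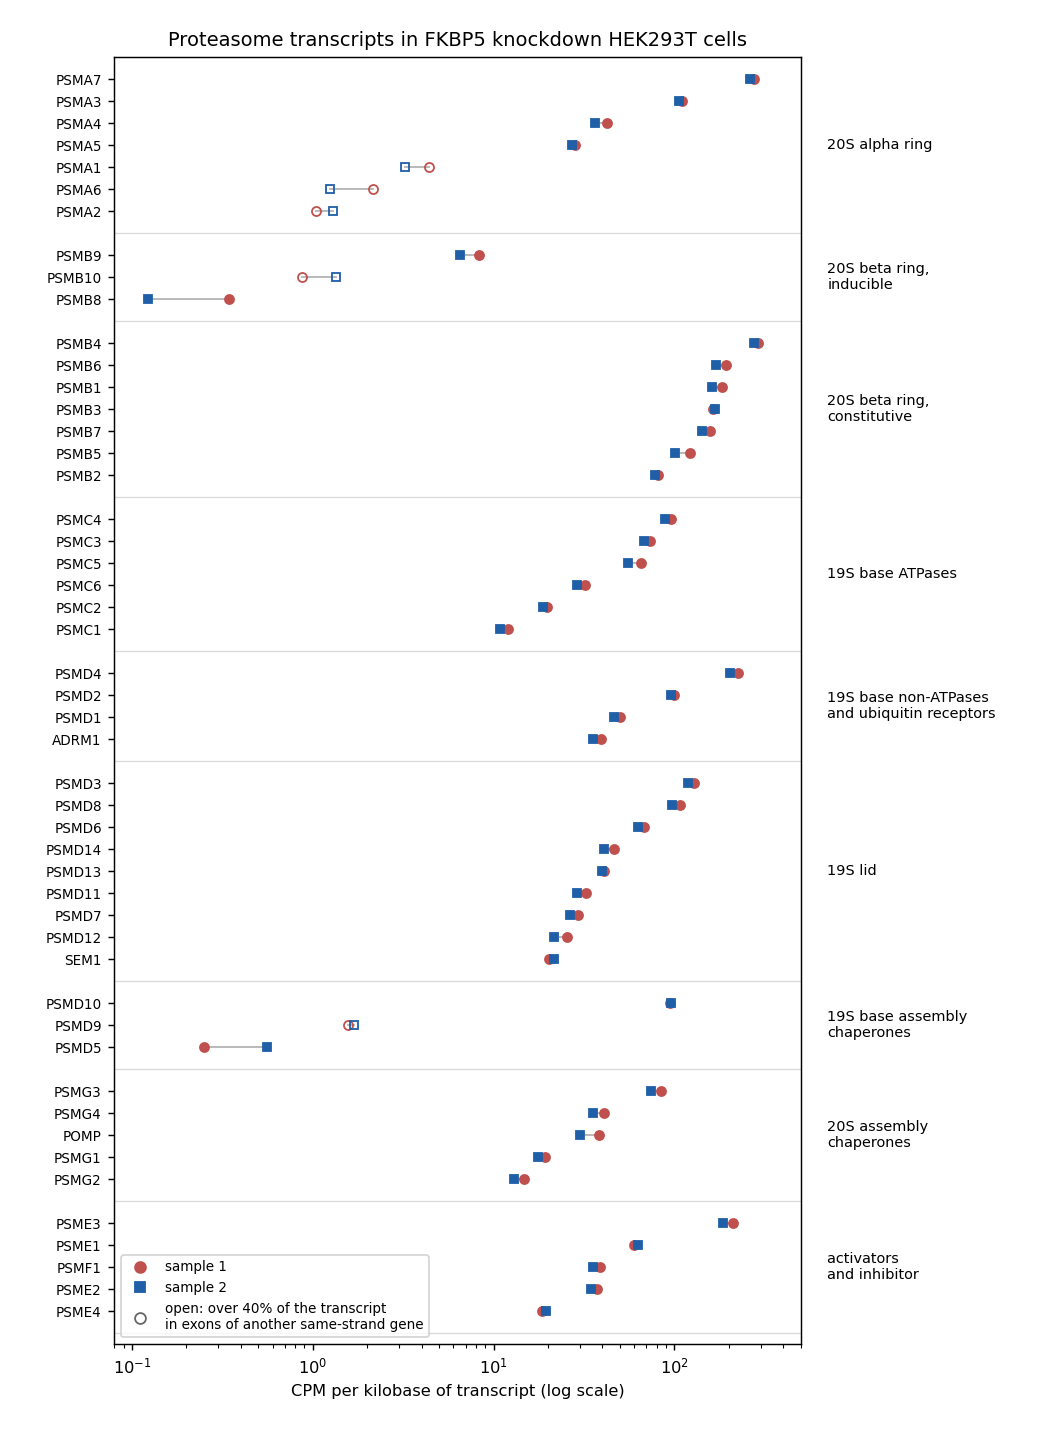
Levels of the 49 proteasome genes in CPM per kilobase of transcript (log axis), grouped by role, with a circle for sample 1 and a square for sample 2. Open symbols mark genes with over 40% of the transcript within other same-strand genes. The constitutive beta subunits lie between 79.9 and 283 CPM per kilobase on average, and the inducible ones between 0.233 and 7.41.

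The inducible beta subunits had a small share of the transcripts of each catalytic pair. PSMB8, the inducible form of the chymotrypsin-like subunit, had 4 counts in sample 1 and 3 in sample 2, against 1647 and 2843 counts of its constitutive counterpart PSMB5. Per length, PSMB8 made up 0.279% of the pair in sample 1 (95% exact binomial interval 0.0760 to 0.712%) and 0.121% in sample 2 (0.0250 to 0.354%). With so few counts PSMB8 lay near the floor of 3 counts, which is 0.289 and 0.137 CPM in samples 1 and 2. PSMB9, the inducible form of the caspase-like subunit, had 67 and 112 counts, against 1714 and 3172 of PSMB6. Its share of the pair per length was 4.08% in sample 1 (3.18 to 5.16%) and 3.70% in sample 2 (3.06 to 4.44%). PSMB10, the inducible form of the trypsin-like subunit, had 11 and 36 counts, against 1598 and 3038 of PSMB7. It made up 0.551% of its pair in sample 1 (0.275 to 0.984%) and 0.944% in sample 2 (0.662 to 1.31%). In each pair the intervals of the samples overlapped, and they cover counting error only. PSMB9 had the highest share in both samples, with intervals clear of the others. The intervals of PSMB8 and PSMB10 overlapped in sample 1 and did not in sample 2.

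In levels, sample 1 had 0.386 CPM of PSMB8, with a 95% exact Poisson interval of 0.105 to 0.987, and sample 2 had 0.137 CPM, with one of 0.0283 to 0.401. For PSMB9 the levels were 6.46 and 5.12 CPM, and for PSMB10 they were 1.06 CPM (0.529 to 1.90) and 1.65 CPM (1.15 to 2.28). The constitutive partners PSMB5, PSMB6 and PSMB7 had 159, 165 and 154 CPM in sample 1 and 130, 145 and 139 CPM in sample 2. Every inducible value lay below every constitutive one in both samples, per length or not. Per kilobase, the median of the inducible subunits was 1.11, against 166 for the constitutive beta subunits, and PSMB9 lay above 45.1% of the 13232 protein-coding genes.

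**Figure D2:**
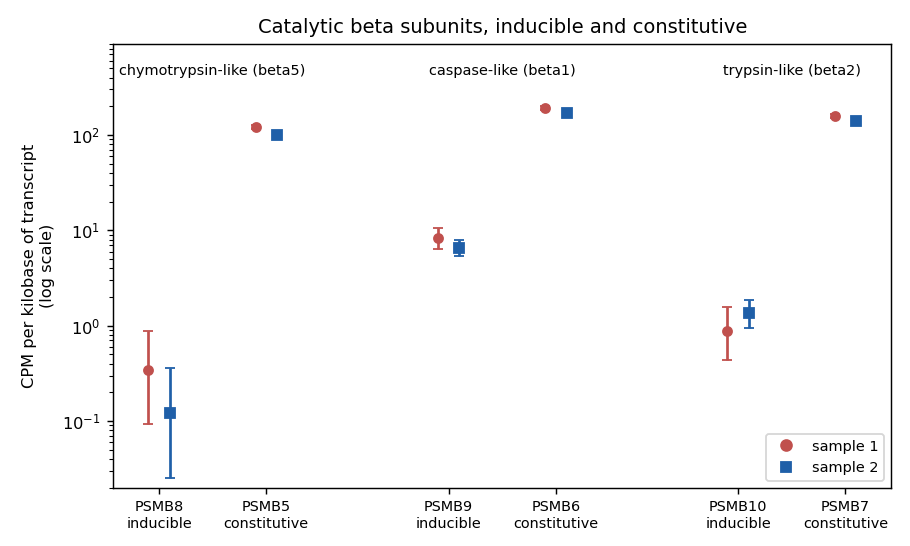
Level of each inducible catalytic subunit and its constitutive counterpart in CPM per kilobase of transcript (log axis), with a circle for sample 1, a square for sample 2 and 95% exact Poisson intervals as bars. Every inducible value lies under 10 CPM per kilobase, and every constitutive one lies above 100.

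PSMB10 overlaps a same-strand gene model. In GENCODE 29, 45.3% of its principal transcript lies in exons of the gene model AC040162.1, which had 13 and 34 counts of its own. With those counts added to PSMB10, its share of the pair was 1.19% in sample 1 and 1.82% in sample 2, an alternative chosen after the data were seen. The principal transcripts of PSMB8 and PSMB9 have no base in the exons of other genes on either strand, and 100% of their 50-base stretches are unique to them. With the union of exons as length, the PSMB9 share averaged 1.72% in place of 3.89%, and the PSMB8 share 0.102% in place of 0.200%. Over PSMB8 and PSMB9 alone, the median of the inducible subunits was 3.82 CPM per kilobase in place of 1.11.

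PSMB8 and PSMB9 lie side by side in the class II region of the major histocompatibility complex on chromosome 6, PSMB10 lies on chromosome 16 and PSMB5 on chromosome 14. Their promoters are printed because these are the genes that contrast, with the 250 bases before the RefSeq start site nearest to that of the principal transcript (GRCh38.p14), 5′ to 3′. Capitals mark matches, on either strand, of the interferon regulatory factor motif (GAAA and GAAA with any 2 bases between them), the STAT motif TTCNNNGAA or the antioxidant response element TGACNNNGC, which NFE2L1 and NFE2L2 bind. Matches of these motifs may overlap, but each printed window holds at most 1.
PSMB8 (chr6:32844048-32844297, minus strand): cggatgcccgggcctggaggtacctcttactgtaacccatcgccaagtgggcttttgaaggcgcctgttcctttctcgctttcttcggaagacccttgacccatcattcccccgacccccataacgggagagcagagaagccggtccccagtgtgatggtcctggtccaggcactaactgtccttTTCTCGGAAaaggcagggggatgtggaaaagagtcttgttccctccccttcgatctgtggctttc
PSMB9 (chr6:32853942-32854191, plus strand): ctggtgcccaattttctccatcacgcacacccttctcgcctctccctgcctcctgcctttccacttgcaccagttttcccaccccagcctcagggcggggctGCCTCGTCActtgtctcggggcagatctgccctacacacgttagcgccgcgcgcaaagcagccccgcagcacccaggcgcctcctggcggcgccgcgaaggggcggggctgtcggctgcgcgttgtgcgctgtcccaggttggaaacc
PSMB10 (chr16:67936851-67937100, minus strand): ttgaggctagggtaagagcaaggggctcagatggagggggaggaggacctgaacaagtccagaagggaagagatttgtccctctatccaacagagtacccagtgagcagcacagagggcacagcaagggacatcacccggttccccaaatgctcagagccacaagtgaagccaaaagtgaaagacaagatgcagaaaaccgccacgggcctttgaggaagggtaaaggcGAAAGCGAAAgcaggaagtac
PSMB5 (chr14:23035221-23035470, minus strand): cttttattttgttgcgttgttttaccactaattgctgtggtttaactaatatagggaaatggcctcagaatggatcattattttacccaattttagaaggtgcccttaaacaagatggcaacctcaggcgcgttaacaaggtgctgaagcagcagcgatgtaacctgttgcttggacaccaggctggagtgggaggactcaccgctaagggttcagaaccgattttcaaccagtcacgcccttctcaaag

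The match in PSMB8 is a STAT motif that begins 65 bases before the start site, that in PSMB9 is an antioxidant response element 148 bases before it and that in PSMB10 is an interferon regulatory factor motif 21 bases before it. The window of PSMB5 holds none of these letters. Of all 35116 promoters of that length, 3.02% hold the interferon regulatory factor motif, 6.57% the STAT motif and 10.9% the antioxidant response element. Promoters were matched for 43 of the 49 genes, PSMA7, PSMB1, PSMB6, PSMB7, PSMD4 and PSMG3 not being among them. The interferon regulatory factor motif was in 5 of the 43 (PSMA4, PSMB4, PSMB10, PSMG4 and PSME2) and the STAT motif in 5 (PSMA2, PSMB8, PSMC4, PSMD3 and PSME3). The antioxidant response element was in 11 of 43, or 25.6%, among them the subunit genes PSMB3, PSMD3 and PSMD12 and the chaperone genes PSMD5, PSMD9 and PSMG1. The CCAAT box (CCAAT) was in 18 of 43 and in 32.0% of all promoters, and the GC box (GGGCGG) in 27 of 43 and in 42.6% of all. A match is a run of letters and not evidence of binding, and the RefSeq start of PSMB10 lies 237 bases inside its GENCODE principal transcript, so most of that window lies inside the gene as GENCODE 29 has it.

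Regulators of the inducible subunits were measured in the same libraries. Of 14 genes of interferon signalling, 12 had a mean of at least 1 CPM and 6 at least 10 CPM. Among these 6 were IRF2 at 20.3 ± 0.413 CPM and NLRC5 at 14.2 ± 0.0561 CPM. The kinase gene JAK1 had 86.1 ± 1.53 CPM and the receptor gene IFNGR1 37.7 ± 5.30 CPM. IRF1, the factor that drives PSMB9 and TAP1, had 5.40 and 4.07 CPM in samples 1 and 2. GBP1 and GBP2, guanylate-binding proteins that interferon-gamma induces strongly, had 3 and 4 counts in sample 1 and 16 and 5 in sample 2. Of 15 genes of class I antigen presentation, 13 had 10 CPM or more, with the largest CPM, not scaled to length, for the chaperone genes CALR at 667 ± 56.3 CPM, PDIA3 at 348 and 320 CPM and CANX at 296 ± 25.3 CPM. TAP1, the peptide transporter gene next to PSMB9, had 30.6 and 28.3 CPM in samples 1 and 2.

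In the constitutive core, levels spread less within the beta ring than within the alpha ring. The 7 constitutive beta subunits had a median of 166 CPM per kilobase and a coefficient of variation of 39.2%. Their ends were PSMB2 at 79.9 ± 1.83 and PSMB4 at 283 ± 11.8 CPM per kilobase. Between them PSMB6 had 182 ± 16.6, PSMB1 172 ± 16.5, PSMB3 166 ± 2.99, PSMB7 150 ± 10.8 and PSMB5 112 ± 15.7 CPM per kilobase. Of the subunits with no catalytic activity, PSMB1 and PSMB3 stood within the range of the catalytic subunits, PSMB2 below it and PSMB4 above it. The 7 alpha subunits ranged over a far wider scale, from PSMA2 at 1.16 ± 0.181 to PSMA7 at 270 ± 9.86 CPM per kilobase, with a coefficient of variation of 152%. Over the 4 alpha subunits that share no exon with a same-strand gene the coefficient was 100.2%, and PSMA7 was 9.76-fold above PSMA5, the lowest of them. The wider range of all 7 thus rests on PSMA1, PSMA2 and PSMA6, whose levels are uncertain.

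Within the alpha ring, PSMA7 and PSMA3 were high, at 270 ± 9.86 and 108 ± 2.57 CPM per kilobase. PSMA4 and PSMA5 had 39.4 ± 4.31 and 27.7 ± 0.569 CPM per kilobase, where PSMA4 depends on its long principal transcript of 4411 bases and had 225 CPM per kilobase with the median coding transcript as length. PSMA1, PSMA2 and PSMA6 were low in counts. PSMA1 had 69 counts in sample 1 and 107 in sample 2, or 6.65 and 4.90 CPM. PSMA2 had 16 and 42 counts, or 1.54 and 1.92 CPM. PSMA6 had 23 and 28 counts, or 2.22 and 1.28 CPM. The 7 alpha subunits occur in the ring in equal number.

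The low alpha subunits share exons with other genes on their strand. The overlap took 53.2% of the principal transcript of PSMA1 (gene model AC018523.2), 52.5% of that of PSMA2 (AC010132.3) and 81.0% of that of PSMA6 (AL121594.1). The overlapping models themselves had 0 and 0, 0 and 3, and 2 and 4 counts. Reads were not split by position. With all counts of a gene set against its length outside the shared exons, PSMA1 had 8.20, PSMA2 2.45 and PSMA6 8.92 CPM per kilobase. These values were below the 4 alpha subunits that share no exon, whose median was 73.9 CPM per kilobase on the plain length. PSMA6 also has pseudogenes, and 24.6% of its 50-base stretches occur in transcripts of genes elsewhere, PSMA6P1 most often. The sources used here do not state how reads in exons of several genes were counted.

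Across all protein-coding genes, low levels also went with a same-strand overlap of 50% or more, as a description. The 17253 genes whose principal transcript has no same-strand overlap had a median of 3.71 CPM per kilobase, and 47.1% of them were under 10 CPM. The 1526 genes with an overlap above 0 and under 50% were close to these, with a median of 3.48 CPM per kilobase and 47.8% under 10 CPM. PSMB10 and PSMD9 fall in that range of overlap. The 425 genes with an overlap of 50 to 90% had a median of 0.311 CPM per kilobase, and 85.9% were under 10 CPM. The 452 genes with 90% or more had a median of 0 CPM per kilobase, and 97.8% were under 10 CPM. Of the proteasome genes, 43 had no same-strand overlap and 3 of these were under 10 CPM, namely PSMB8, PSMB9 and PSMD5. All 3 genes with 50 to 90% overlap were under 10 CPM, and so were PSMB10 and PSMD9 of the 3 with less. The part of the overlap in these low counts was not tested, so the levels of PSMA1, PSMA2, PSMA6, PSMB10 and PSMD9 are uncertain.

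**Figure D3:**
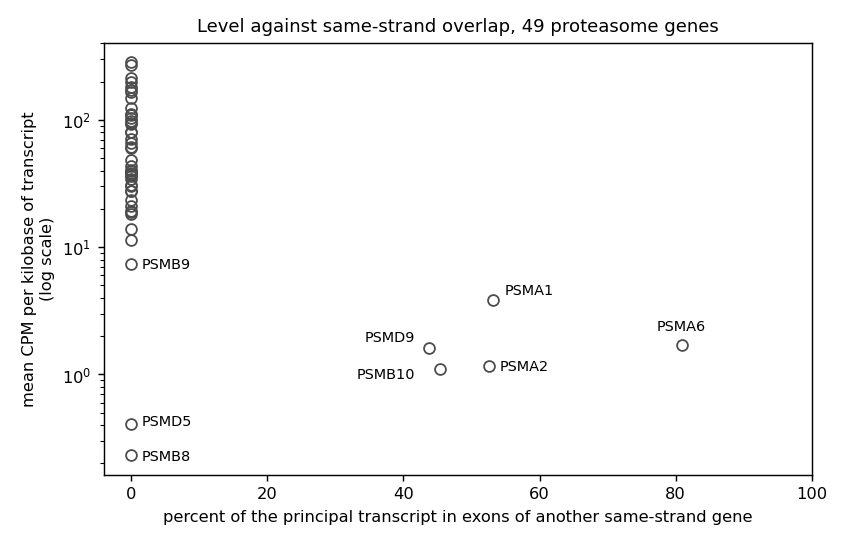
Mean level of each of the 49 proteasome genes in CPM per kilobase (log axis) against the percentage of its principal transcript in exons of another same-strand gene. The 5 genes with over 40% overlap lie below 5 CPM per kilobase, and PSMB8 and PSMD5, with no overlap, lie lower still.

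All 19 genes of the 19S cap had more than 10 CPM per kilobase of principal transcript. The 6 ATPases of the base, which unfold the substrate, had a median of 45.4 CPM per kilobase and ran from PSMC1 at 11.4 ± 0.821 to PSMC4 at 92.4 ± 4.95. PSMC1 had 53.4 and 48.2 CPM in samples 1 and 2. Its transcript lies by 82.1% in exons of NRDE2 on the other strand, and 71.0% of its 50-base stretches are its own, the rest being shared mostly with PSMC1P1. The sources used here do not state the strand setting of the counting, so reads of PSMC1 and NRDE2 may be mixed. With the median coding transcript as length, PSMC1 had 36.6 CPM per kilobase. PSMC3 had 70.6 ± 3.85, PSMC5 60.4 ± 6.88, PSMC6 30.4 ± 2.27 and PSMC2 19.3 ± 0.673 CPM per kilobase. PSMC6 shares 24.7% of its 50-base stretches with other genes, AC046176.1 most often, and 27.2% of the transcript of PSMC5 lies opposite exons of FTSJ3.

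The other base genes carry the ubiquitin receptors and the scaffold. PSMD4, a ubiquitin receptor, was the highest 19S gene at 214 ± 16.7 CPM per kilobase. It had 304 and 273 CPM in samples 1 and 2, and 21.9% of its 50-base stretches also occur elsewhere, mostly in PIPSL. ADRM1, another ubiquitin receptor, was the lowest of the 4 at 37.2 ± 2.64 CPM per kilobase. It had 59.9 and 54.1 CPM in samples 1 and 2. The scaffold subunits PSMD2 and PSMD1 had 97.2 ± 2.87 and 48.1 ± 2.66 CPM per kilobase.

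The 9 lid genes had a median of 40.3 CPM per kilobase. PSMD3 led with 124 ± 7.11 CPM per kilobase (278 and 257 CPM in samples 1 and 2), followed by PSMD8 at 103 ± 7.22. PSMD14, the enzyme that cuts the ubiquitin chain off the substrate, had 43.7 ± 4.05 CPM per kilobase. SEM1, a short acidic subunit that is shared with other complexes, was lowest at 20.9 ± 0.875 CPM per kilobase, with 26.7 and 28.3 CPM in samples 1 and 2. The remaining lid genes PSMD6, PSMD7, PSMD11, PSMD12 and PSMD13 lay between 23.4 and 65.6 CPM per kilobase.

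The assembly chaperones of the 20S core were lower at the median than its constitutive subunits, 34.2 against 110 CPM per kilobase. The chaperones PSMG1 and PSMG2 form a pair that seeds the alpha ring. PSMG1 had 41.3 and 37.9 CPM in samples 1 and 2, and PSMG2 24.9 and 21.8 CPM. Their partner chaperones PSMG3 and PSMG4 had 118 and 104 CPM, and 34.3 and 29.7 CPM, in samples 1 and 2. POMP, the maturation protein on which beta subunits join the alpha ring, had 51.1 and 39.9 CPM in samples 1 and 2. Per kilobase, these 5 genes ran from PSMG2 at 13.8 ± 1.27 to PSMG3 at 79.7 ± 7.21. PSMG1, PSMG2 and PSMG4 did not pass the test between the libraries.

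The chaperones of the 19S base differed widely from each other, with PSMD10 far above PSMD9 and PSMD5. PSMD10, also called gankyrin, had 146 and 149 CPM in samples 1 and 2, or 95.3 ± 1.32 CPM per kilobase. PSMD9 had 4.34 and 4.71 CPM, and 43.8% of its principal transcript lies in same-strand exons of WDR66 and AC069503.2. PSMD5 had 9 and 42 counts, or 0.867 CPM (exact interval 0.397 to 1.65) and 1.92 CPM (1.39 to 2.60). No overlap or shared stretch in GENCODE 29 went with the low PSMD5 counts, since 100% of its 50-base stretches are its own. The count table also holds 2187 gene IDs that are not in GENCODE 29, and whether any of them overlaps PSMD5 was not tested.

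Among the activators, PSME3 was highest on the principal transcript length. PSME3, which forms the nuclear activator PA28-gamma, had 211 and 186 CPM in samples 1 and 2, or 199 ± 17.8 CPM per kilobase. PSME1 and PSME2 form the interferon-inducible activator PA28-alpha/beta. PSME1 had 60.1 and 63.4 CPM in samples 1 and 2, and PSME2 had 52.4 and 48.6 CPM. Per kilobase these were 61.4 ± 2.30 for PSME1 and 36.0 ± 1.93 for PSME2. Of the 50-base stretches of PSME2, 10.8% occur in other genes, PSME2P2 most often. PSME4, the activator PA200, had 131 and 138 CPM in samples 1 and 2 and, with its transcript of 7099 bases, the lowest level of the class at 18.9 ± 0.668 CPM per kilobase. The inhibitor gene PSMF1 had 166 and 152 CPM, or 37.1 ± 2.27 CPM per kilobase. The size of the lead of PSME3 over PSME1 depends on the length. With the union of exons, PSME3 had 38.5 and PSME1 34.7 CPM per kilobase.

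Subunits of other tissues were close to the floor. PSMB11, the catalytic subunit of the thymoproteasome, had 4 counts in sample 1 and 7 in sample 2, and PSMA8, the alpha subunit of the testis, had 0 and 4. Both genes of that list are named here.

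Nearly all genes measured that act on the proteasome or its genes were detected well above the floor. Of 17 genes for the transcription factors of proteasome genes and the enzymes that activate them, 16 had at least 10 CPM. VCP, the segregase that extracts NFE2L1 from the endoplasmic reticulum, had 287 ± 19.8 CPM, its cofactor NPLOC4 211 ± 5.99 CPM and NFE2L1 itself 178 ± 8.81 CPM. Of 20 shuttle factors, ubiquitin enzymes and accessory proteins, 19 had at least 10 CPM, and DDI1 had no count in either sample. The shuttle factor RAD23B had 306 ± 14.4 CPM, and the ubiquitin ligase UBE3C 271 and 268 CPM in samples 1 and 2.

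Proteasome genes were on the whole slightly higher in sample 1 than in sample 2. The comparison is between 2 libraries of the same group and not between conditions. A 2-sided exact binomial test, Benjamini-Hochberg adjusted over the 15530 genes that averaged 1 CPM or more, covered 48 of the 49 genes, PSMB8 being too low. At an adjusted p under 0.05 it called 16 of the 48 higher in sample 1 (33.3%) and 0 lower. Over all genes tested, 8.97% were called, 4.56% higher in sample 1 and 4.41% lower. The test finds small differences more often in abundant genes: among genes that averaged 100 CPM or more it called 13 of 25 proteasome genes (52.0%) and 26.5% of all. The median log2 ratio of CPM + 1, sample 1 over sample 2, was 0.12 over the 48 genes and -0.01 over all genes tested. In 39 of the 48 the ratio was above 0, or 81.2%, as it was for 46.9% of all genes tested. The binomial test includes counting error only. When edgeR's exact test used a common dispersion estimated from the 2 libraries as replicates (a biological coefficient of variation of 5.61%), it called 0 of the 48 at an adjusted p under 0.05, 3 at an unadjusted p under 0.05, and 0.0837% of all genes. That dispersion comes from the same libraries and contains the differences tested, so this count is a description and no test of them.

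The called genes came from most parts of the particle. In the core, the beta subunits PSMB5, PSMB6, PSMB1 and PSMB7 and the alpha subunit PSMA4 were higher in sample 1. PSMB5 had 159 and 130 CPM in samples 1 and 2, a log2 ratio of 0.29 (adjusted p = 3.37e-08, exact binomial test). PSMA4 had 187 and 160 CPM, a log2 ratio of 0.22 (adjusted p = 5.05e-06, exact binomial test). PSMB1 had 171 and 149 CPM, PSMB6 165 and 145 CPM and PSMB7 154 and 139 CPM. PSMB2, PSMB3 and PSMB4 did not pass, at 219, 127 and 281 CPM in sample 1 and 212, 130 and 265 CPM in sample 2. In the cap, PSMC5 had 103 and 87.7 CPM in samples 1 and 2, PSMD4 304 and 273 CPM, and PSMD12 112 and 94.5 CPM. PSMD3, PSMD8, PSMD11 and PSMD14 also passed, with log2 ratios of 0.12 to 0.19. PSMD8 had 167 and 151 CPM in samples 1 and 2, PSMD11 133 and 119 CPM, and PSMD14 91.1 and 79.9 CPM.

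POMP had the largest log2 ratio of the called genes, 0.35 (adjusted p = 0.000411, exact binomial test), and PSMG3 had 0.18. PSME3 and PSMF1 passed as well, at 0.18 and 0.12. The inducible subunits PSMB9 and PSMB10 did not pass, with log2 ratios of 0.28 and -0.36 from few counts. PSMD5 and PSMA6 had the lowest and highest ratios of all 48, -0.65 and 0.50, and neither passed.

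Among the other lists, the test called 3 of 17 transcription and activation genes (VCP, NFYC and NFYB), 1 of 19 accessory genes (RAD23B) and 1 of 12 interferon genes (IFNGR1), each higher in sample 1. Of the 15 antigen presentation genes, 4 were called higher (CALR, PDIA3, CANX and B2M) and TAPBP lower. Among the marker genes, COL1A1 and ENO2 were called lower in sample 1, and their part in the differences of the proteasome genes was not tested.

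**Figure D4:**
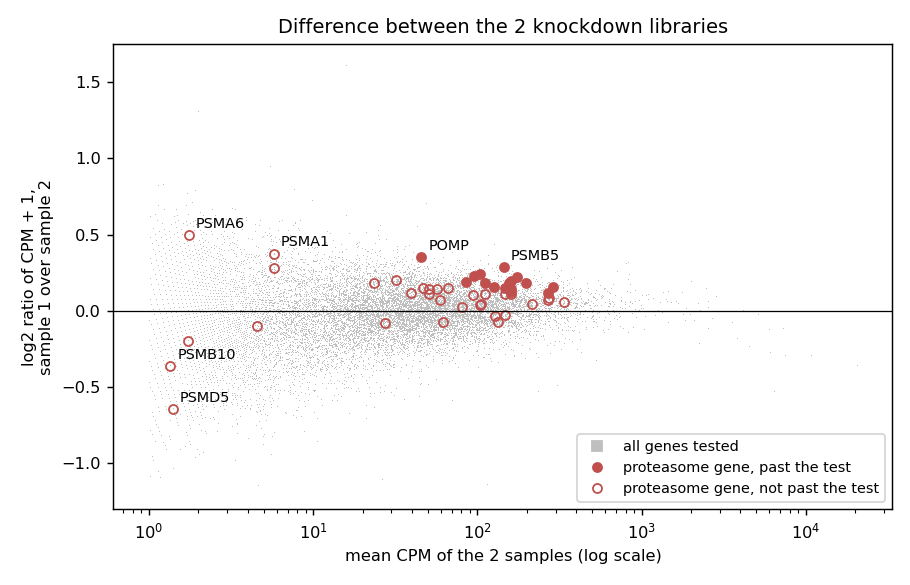
Log2 ratio of CPM + 1, sample 1 over sample 2, against mean CPM (log axis), for all 15530 genes tested (grey) and the 48 proteasome genes tested (red, filled where the binomial test called them). The 16 called genes all lie above 0, and the genes with few counts spread from -0.65 to 0.50.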

How the data were processed

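Directional libraries were made from total RNA extracted with TRIzol, per the labels' protocols. The authors deposited unnormalized whole counts for each Ensembl gene ID, and their deposited CPM equal those counts times 1 constant per library (100% of values within a tolerance of 1e-06). STAR 2.7.7a, edgeR and GRCh38 are named in the processing notes of the submitters. Neither the counting program nor its strand setting or annotation is stated there.

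Gene symbols came from an Ensembl name table, and lengths, overlaps and 50-base stretches from GENCODE 29, which holds 96.4% of the gene IDs. The principal transcript is the APPRIS principal one, then the longest coding one. Means and SD are over the 2 samples. Intervals are 95% exact Poisson or binomial, reads carry no stated molecular identifiers, and intervals and the floor of 3 counts cover counting error only. The binomial test set each gene's counts against the deposited scaling. On simulated counts for 15530 genes it recovered 65% of 1.5-fold and 83% of 2-fold changes, with 8 unchanged genes called, under counting error alone. Changes as small as those of the called proteasome genes were not simulated. One group of samples allows no edgeR or DESeq2 contrast. Alternatives changed the length, scaling, filter, pseudocount and test, or left out a sample.

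The 49 genes and all lists were chosen with earlier results of these data known. Named are the catalytic pairs, activators, assembly factors, the ends of each class, the called genes and the 3 highest genes of each other list (some are not reported here), and genes outside this rule were chosen after their values were seen (among them IRF1, GBP1, GBP2, TAP1 and PTPRC). Tools were R 4.3.3, edgeR 4.0.16, DESeq2 1.42.0, Python 3.11.15, pandas 2.3.3, numpy 2.4.6, scipy 1.17.1 and matplotlib 3.10.9. Promoters came from RefSeq (GRCh38.p14).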

Additional observations from a re-analysis of the deposited data

How the results depend on the processing

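The binomial test called 13 to 18 proteasome genes between the libraries under 5 other settings, with 0 lower in sample 1 under each of them. Scaling to column totals called 18 of 48, and 1497 of all 15530 genes (908 higher in sample 1, 589 lower). TMM factors called 16 of 48, and 1393 of 15530 (708 higher, 685 lower). DESeq2 size factors called 15 of 48, and 1408 of 15530 (551 higher, 857 lower). With no filter, 13 of 49 were called, and 972 of 41325 (501 higher, 471 lower). A minimum of 10 CPM gave 16 of 41, and 1466 of 10315 (781 higher, 685 lower). In edgeR's exact test with a common dispersion, which contains the differences it tests, 0 of 48 were called, and 13 of 15530. The median log2 ratio of these genes was 0.11 to 0.14 under every scaling, filter and pseudocount tried. PSMF1 missed the threshold with DESeq2 size factors, and PSMF1, PSMD11 and PSMD14 missed it without a filter. Levels moved with the length and with overlapping genes left out. The median of the 49 genes, 39.4 CPM per kilobase, was 21.2 with the union of exons and 62.4 with the median coding transcript, and with the union the PSMB9 share was 1.72% and the PSMB8 share 0.102%. Over genes with no same-strand overlap, the median of the 19S base chaperones was 47.8 in place of 1.63 CPM per kilobase. That value is the midpoint of 2 genes far apart, PSMD5 at 0.405 and PSMD10 at 95.3 CPM per kilobase. The median of the inducible beta subunits was 3.82 in place of 1.11, the midpoint of PSMB8 at 0.233 and PSMB9 at 7.41. The PSMB10 share was 1.51% with the counts of the overlapping gene added, against 0.748%. The median of the inducible beta subunits was 0.67% of that of the constitutive ones, 0.532 to 0.841% with 1 sample left out, 0.891% with the union of exons and 2.30% over genes with no same-strand overlap. Without sample 1 or sample 2, the PSMB8 share was 0.121 to 0.279%, that of PSMB9 3.70 to 4.08% and that of PSMB10 0.551 to 0.944%, and the median of the 49 genes 36.3 to 40.9 CPM per kilobase. No sample could be left out of the test between the libraries. No paired analysis was possible because there is 1 group. PSMB8, PSMB10 and PSMD5 rest on 3 to 42 counts a library, which limits their precision.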
